A study of Mus musculus with 5 samples.

Results

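The 58 genes described here encode splicing factors and heterogeneous nuclear ribonucleoproteins (hnRNPs). They were chosen by gene name, as genes of the SR protein, hnRNP, SF3A, SF3B, Sm and snRNP protein, and U2AF families, and selected on an interval of RNA polymerase II enrichment in at least 1 of the 2 *Parp14*+/+ libraries. They are 58 of the 11608 genes of the table, and 7971 genes in all met the same interval criterion. No gene outside that criterion carried a name of these families in the table, but names there may be shifted against their genes, so whether a gene was lost to the criterion is not known. Because intervals in the *Parp14*+/+ libraries chose the genes, interval presence and signal in those libraries are given as a description.

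The study mapped RNA polymerase II phosphorylated at serine 2 of its C-terminal repeat, the form that elongates through genes, by chromatin immunoprecipitation and sequencing (ChIP-seq) in mouse Th2 cells. It asked which genes depend on PARP-14, an ADP-ribosyltransferase that acts as a cofactor of STAT6, and on ADP-ribosyltransferase activity. Naïve CD4+ CD62L+ T cells from spleens of young adult C57BL6 mice were activated for 3 days through CD3 and CD28 with IL-4 at 10 ng/ml and an antibody to IFN-γ, then expanded for 4 days with IL-2 and IL-4. The 4 groups, with 1 library each, were PARP-14 +/+ cells (*Parp14*+/+), PARP-14 +/+ cells with 10 µM PJ34, an inhibitor of ADP-ribosyltransferases (*Parp14*+/+ with PJ34), PARP-14 -/- cells (*Parp14*−/−), and PARP-14 -/- cells with the same dose of PJ34 (*Parp14*−/− with PJ34). The dose is that of the sample labels, which place PJ34 on differentiated cells, and the study's methods give another dose and place it in the culture. With 1 library per group, no difference below could be compared with the spread between replicates, and no p-value is given.

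Splicing removes introns from pre-mRNA in the spliceosome, which is built from small nuclear ribonucleoproteins (snRNPs). A ring of Sm proteins forms the core of most snRNPs, the U1 snRNP recognises the start of an intron, and U2AF and the U2 snRNP with its SF3A and SF3B complexes recognise the branch point and the intron's end. SR proteins mostly promote and hnRNPs often repress the use of nearby exons, and in activated T cells hnRNP L and hnRNP LL repress variable exons of the CD45 gene *Ptprc*.

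The signal is the average peak height of a gene. A peak height is the largest number of sequenced fragments stacked over 1 position of an active region, which is a stretch in which the intervals of all 8 libraries in the table, 4 of them of other cells, were joined, and the average runs over the active regions assigned to the gene. Active regions within 5 kb of a gene gave the table's number of regions for 10946 of 11608 genes and for 55 of the 58 genes described here. A height is read at 1 position, so it was not divided by gene length. Libraries had been reduced by the authors to equal numbers of alignments. Heights summed over all regions of the table came to 218325 in *Parp14*+/+, 226678 in *Parp14*+/+ with PJ34, 219553 in *Parp14*−/− and 203834 in *Parp14*−/− with PJ34. The number of intervals was 11692, 12014, 10228 and 8841 in the same order, so the library with *Parp14*−/− cells and PJ34 had both the lowest sum and the fewest intervals.

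The genotype labels were checked on *Parp14* itself. The length of *Parp14* under intervals was 22873 bp in the untreated *Parp14*+/+ library and 20836 bp in the treated one, against 2686 bp in the untreated and 3286 bp in the treated *Parp14*−/− library. The gene was covered over a far shorter length in both *Parp14*−/− libraries. Its average peak height differed less, at 8 in *Parp14*+/+, 11 in *Parp14*+/+ with PJ34, 6.67 in *Parp14*−/− and 6.67 in *Parp14*−/− with PJ34. Of 9 markers of CD4 T cells and Th2 cells, 9 had an interval in *Parp14*+/+, 8 in *Parp14*+/+ with PJ34, 6 in *Parp14*−/− and 7 in *Parp14*−/− with PJ34. Their summed heights were 357.5, 316, 299 and 245.5 in the same order. The largest part was *Il4ra*, with 132, 110, 160 and 130. The cytokine genes stood lower in both *Parp14*−/− libraries, at 61, 39, 29 and 18 for *Il4*, 21, 21, 4 and 6 for *Il5*, and 38, 33, 17 and 10 for *Il13*. Of 16 markers of other cells, 10 were in the table, and 4, 5, 3 and 4 of them had an interval. Summed heights of those 10 markers were 118.5, 118.5, 103 and 90. *Cd79a*, a B cell marker, was the most abundant of them, with heights of 38, 36, 34 and 28. The Th1 markers *Tbx21*, with 28, 22, 26 and 19, and *Ifng*, with 22, 20, 16 and 14, came next. *Cd79a*, *Tbx21* and *Ifng* had an interval in all 4 libraries. The B cell markers *Ms4a1* and *Pax5* and the CD8 T cell marker *Cd8a* had no interval in any of the 4 libraries. Whether cell composition or the lower heights of Th2 cytokine genes in the *Parp14*−/− libraries had a part in any difference below was not tested.

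Polymerase signal on these genes was high. The median of their mean heights over the 4 libraries was 19 fragments, against 9.5 over all 7971 genes, and 46 of the 58 lay above that median of all. Library medians of the 58 genes were 20 in *Parp14*+/+, 19 in *Parp14*+/+ with PJ34, 17 in *Parp14*−/− and 16 in *Parp14*−/− with PJ34, and over all genes they were 10, 10, 9.5 and 9. Together the 58 genes held 0.827% of the summed height in *Parp14*+/+, 0.782% in *Parp14*+/+ with PJ34, 0.798% in *Parp14*−/− and 0.766% in *Parp14*−/− with PJ34. An interval was present in all 4 libraries for 48 of the 58 (82.8%), against 4679 of all 7971 genes (58.7%), in 3 libraries for 8, and in 1 library for 2, the SF3B subunit gene *Sf3b2* and the Sm gene *Snrpd2*.

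**Figure D1:**
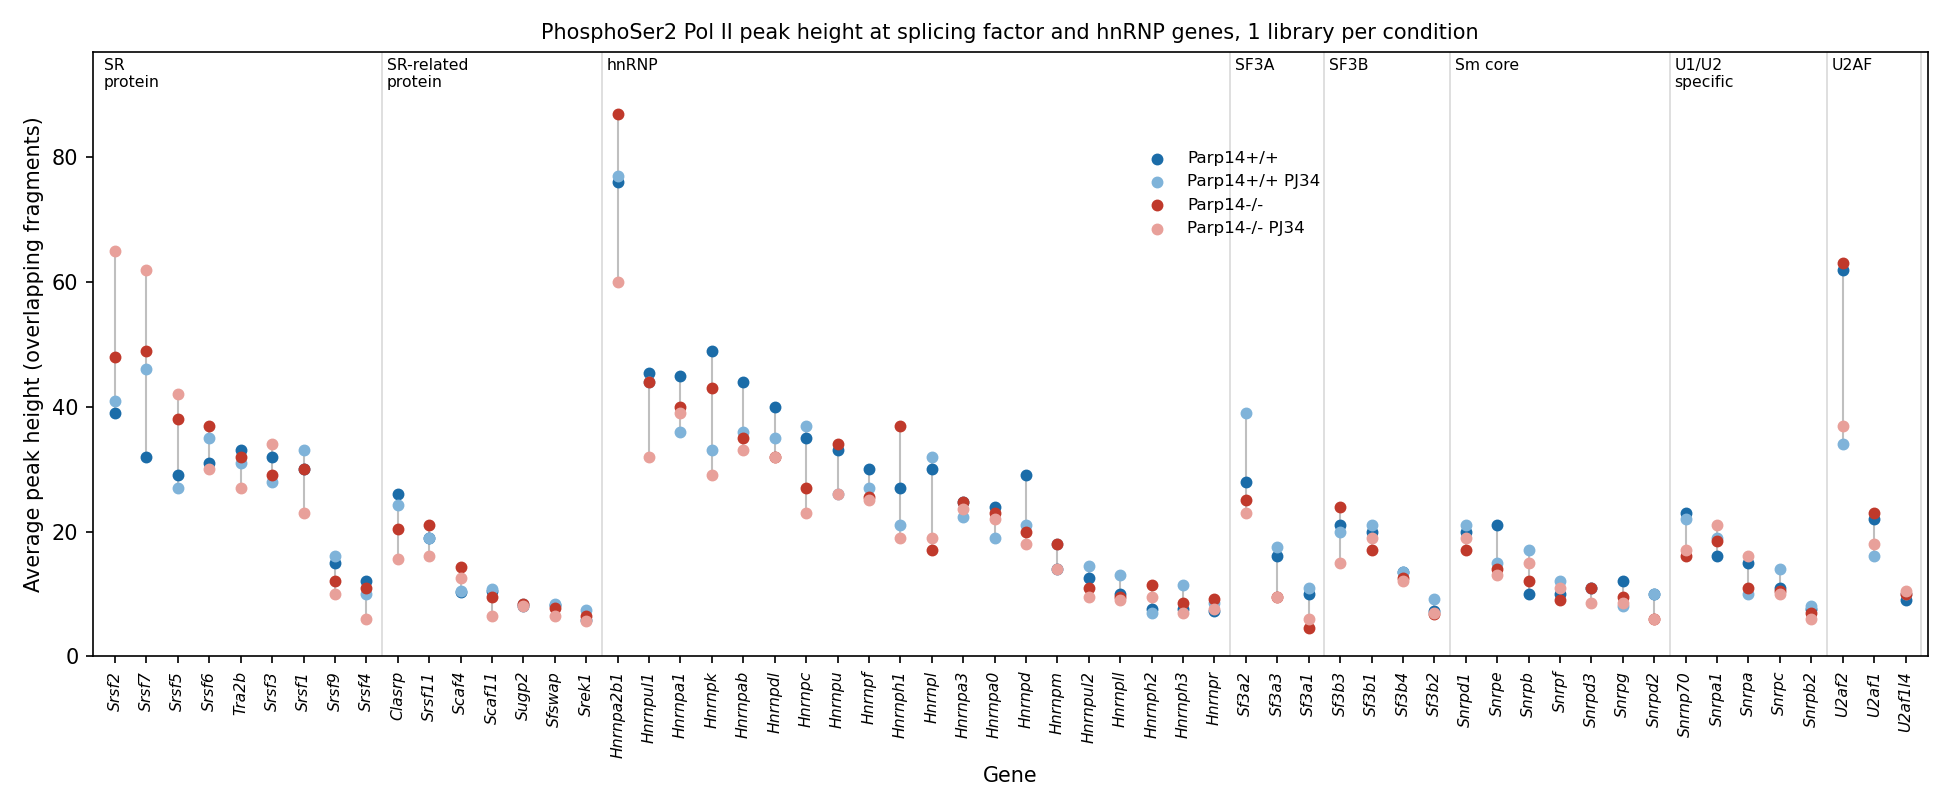
Average peak height, in overlapping fragments, of the 58 genes by subfamily, with 1 point per library and a line from the lowest to the highest. *Hnrnpa2b1* reached 87 fragments in *Parp14*−/−, and the heights of *Srsf2*, *Srsf7* and *U2af2* spread more widely over the 4 libraries than those of most other genes.

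Subfamilies differed in average height, which runs over the active regions of a gene. Each SR protein gene had 1 region, and the SR-related genes other than *Srsf11* had 3 to 5. Whether averaging over regions had a part in the order of the subfamilies was not tested. The median of mean heights was 30.8 for the 9 SR protein genes, 25.3 for the 20 hnRNP genes, 19.8 for the 3 U2AF genes and 16.1 for the 4 SF3B genes. It was 13.1 for the 3 SF3A genes, 13 for the 5 genes of U1 and U2 snRNP-specific proteins, 10.5 for the 7 Sm core genes and 9.31 for the 7 genes of SR-related proteins, the last being close to the median of all genes. Groups were set by gene name, so the SR protein genes include *Tra2b*, listed as *Sfrs10*, and *Srsf11* counts as SR-related. *Hnrnpa2b1* (chr6:51410433-51419893, mouse build mm9), whose product binds RNA in splicing and mRNA transport, was the highest of the 58, with a mean height of 75. The lowest average was that of *Srek1*, a gene of an SR-related regulator, at 6.3 over 5 active regions. The tallest summits in the regions of *Srek1* were of 11 to 13 fragments.

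Intervals also covered a larger share of these genes than of all genes. The median share of a gene covered by intervals was 87.4% in *Parp14*+/+, 77.3% in *Parp14*+/+ with PJ34, 73.9% in *Parp14*−/− and 69.2% in *Parp14*−/− with PJ34, against 21.6%, 14.4%, 7.11% and 5.26% over all genes. The order of the libraries was the same in the 58 genes and in all genes. In base pairs, 32 of the 58 genes were covered further in *Parp14*+/+ than in *Parp14*−/− and 4 less far, beside 53.5% and 16.6% of all genes. With PJ34 in both genotypes, 29 were covered further in *Parp14*+/+ and 9 less far, beside 48.3% and 20.2% of all genes. In *Parp14*+/+ cells, 25 genes were covered further without PJ34 than with it and 10 less far, beside 47.6% and 27.5% of all genes. In *Parp14*−/− cells these numbers were 24 and 11, beside 34.2% and 24.7%. The listed genes went with all genes in direction in each comparison. Both sets were selected on an interval in a *Parp14*+/+ library, which favours longer coverage in those libraries. The shared direction of the genotype comparisons is therefore a description only. The 9 SR protein genes had a median covered share of 100% in each library, but *Srsf9* was covered over 46.4% in *Parp14*+/+ and not at all in the other 3, and *Srsf4* over 81.1% in *Parp14*+/+, 100% in *Parp14*+/+ with PJ34, 30.7% in *Parp14*−/− and 0% in *Parp14*−/− with PJ34. The hnRNP and U2AF genes also had medians of 100% in both *Parp14*+/+ libraries. Medians were lower in the other subfamilies and differed between libraries. They ran from 0.158% in *Parp14*−/− to 42.1% in *Parp14*+/+ with PJ34 for the SF3A genes. For the U1 and U2 snRNP-specific genes they ran from 0% in *Parp14*+/+ with PJ34 to 55.4% in *Parp14*−/− with PJ34. The lowest library medians of the SF3B and SR-related genes were 27.8% and 25.6%, both in *Parp14*−/− with PJ34.

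Ratios of average heights were called above 1.4 or below 0.7, the limits the study set for *Parp14*+/+ against *Parp14*−/−, which were applied here to the PJ34 comparisons as well. The study used them on peak values of another scale, added a second tier for high genes, and required a significant peak in the higher sample. The calls here use the limits alone and are not the study's calls. In *Parp14*+/+ against *Parp14*−/−, 7 of the 58 genes lay above 1.4, where 13.3% of all genes did, and 2 below 0.7, where 9.07% of all genes did. With PJ34 in both genotypes, 14 lay above 1.4, beside 23.6% of all genes, and 3 below 0.7, beside 4.55%. In *Parp14*+/+ cells without against with PJ34, 4 lay above 1.4, beside 6.95% of all genes, and 3 below 0.7, beside 10.4%. In *Parp14*−/− cells without against with PJ34, 7 lay above 1.4, beside 14.3% of all genes, and 1 below 0.7, beside 5.7%. As shares of the 58 genes these counts were 12.1% and 3.45%, 24.1% and 5.17%, 6.90% and 5.17%, and 12.1% and 1.72%. All of them lay near or below the share over all genes, so the counts are not a result about the splicing factor genes. Each PJ34 comparison shares a library with each genotype comparison. Both sets of genes were selected on an interval in a *Parp14*+/+ library, which favours genotype ratios above 1. Without that criterion, 14.3% of all 11608 genes lay above 1.4 and 13.4% below 0.7 in *Parp14*+/+ against *Parp14*−/−. With PJ34 in both genotypes these shares were 23.0% and 8.16%.

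Medians stood close to those of all genes. The median ratio of the 58 genes was 1.05 in *Parp14*+/+ against *Parp14*−/− (1.04 over all genes), 1.15 with PJ34 in both genotypes (1.16), 0.982 in *Parp14*+/+ without against with PJ34 (0.960) and 1.10 in *Parp14*−/− without against with PJ34 (1.08). On the log2 scale the median ratio of all genes stood at 0.21 in the genotype comparison with PJ34 and at 0.12 in the PJ34 comparison of *Parp14*−/− cells. Ratios in these comparisons are therefore also given after scaling each pair of libraries to a median ratio of 1 over the 7971 genes. Those genes were selected on an interval in a *Parp14*+/+ library, so scaled genotype ratios can lie too low. After scaling, the numbers above 1.4 and below 0.7 were 5 and 3 in *Parp14*+/+ against *Parp14*−/−, beside 11.2% and 11.4% of all genes. They were 8 and 5 with PJ34 in both genotypes, beside 12.6% and 10.8%. In *Parp14*+/+ without against with PJ34 they were 7 and 2, beside 9.33% and 8.93%, and in *Parp14*−/− without against with PJ34 they were 4 and 3, beside 8.71% and 9.26%. The excess of ratios above 1.4 over those below 0.7 in the genotype comparison with PJ34 was thus smaller relative to the shift of all genes. In all, 29 of the 58 genes (50%) passed a limit in at least 1 comparison, beside 53% of all genes, and 29 in none.

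Counting error alone was wide at these heights. A 95% interval of each ratio was computed from the summed heights of the gene's regions as an exact binomial (Clopper-Pearson) interval, which covers counting error only. It takes heights as counts, but a height is a largest pile-up whose position can differ between libraries. The interval is therefore only a rough guide to counting error. The interval left out 1 for 0 of the 58 genes in *Parp14*+/+ against *Parp14*−/− (3.02% of all genes), 3 with PJ34 in both genotypes (3.65%), 1 in *Parp14*+/+ without against with PJ34 (1.67%) and 3 in *Parp14*−/− without against with PJ34 (1.58%). The genes were *Sf3a3*, *Clasrp* and *Srsf2* in the genotype comparison with PJ34, *U2af2* in *Parp14*+/+ without against with PJ34, and *U2af2*, *Hnrnph1* and *Hnrnpa2b1* in *Parp14*−/− without against with PJ34. Ratios close to a limit are as uncertain on either side of it. *Snrnp70* at 1.44 and *Hnrnpd* at 1.45 lay just above the upper limit in *Parp14*+/+ against *Parp14*−/−, and *Snrpa* at 1.36 just below it. In the genotype comparison with PJ34, *Srsf1* at 1.43 lay just above it, *Snrpc* lay on it at 1.4, and *Hnrnpul1* lay below it at 1.38. At the lower limit, *Srsf7* at 0.696 was just past it in *Parp14*+/+ without against with PJ34, and *Scaf4* at 0.719 just short of it in *Parp14*+/+ against *Parp14*−/−.

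**Figure D2:**
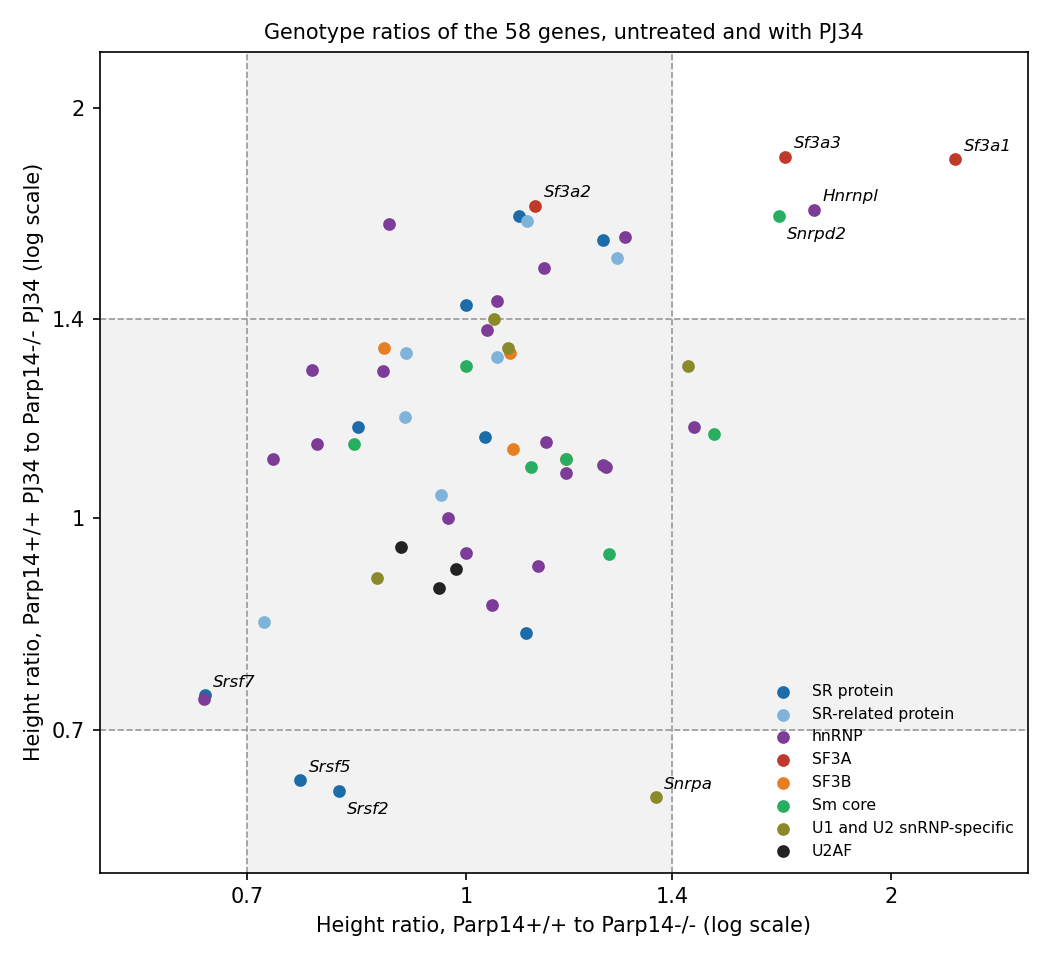
Ratio of average peak height of *Parp14*+/+ to *Parp14*−/− for each of the 58 genes without PJ34 (horizontal axis, log scale) and with PJ34 (vertical axis, log scale), with dashed lines at 1.4 and 0.7. *Sf3a1*, *Sf3a3*, *Hnrnpl* and *Snrpd2* lie above 1.4 on both axes, and no gene lies below 0.7 on both, though *Srsf7* and *Hnrnph2* do after each pair of libraries is scaled to a median ratio of 1.

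Both genotype comparisons placed 4 of the 58 genes (6.90%) above 1.4, beside 4.29% of all genes. The comparisons share no library, but each rests on 1 library per genotype. The 58 genes and all 7971 were selected on an interval in a *Parp14*+/+ library, which favours genotype ratios above 1, so the count is a description. *Snrpd2*, 1 of the 4, met the criterion through the untreated *Parp14*+/+ library alone. *Sf3a1* (chr11:4060371-4080632) encodes the largest subunit of SF3A, the complex that joins the U2 snRNP before it binds the branch point. Its heights were 10 in *Parp14*+/+, 11 in *Parp14*+/+ with PJ34, 4.5 in *Parp14*−/− and 6 in *Parp14*−/− with PJ34, so both *Parp14*−/− libraries lay below both *Parp14*+/+ libraries. The ratio for *Sf3a1* was 2.22 (0.967 to 5.54) without PJ34 and 1.83 (0.869 to 4.06) with it, and 1.58 after scaling. Intervals covered 6182 bp of *Sf3a1* in *Parp14*+/+ and 4532 bp in *Parp14*+/+ with PJ34, but 32 bp in *Parp14*−/− and 0 bp in *Parp14*−/− with PJ34. The tallest summit, the highest point of an interval, in the regions of *Sf3a1* lay 2793 bp past the end of the gene in *Parp14*+/+ and 6281 bp past it, in the next gene *Tbc1d10a*, in *Parp14*+/+ with PJ34.

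*Sf3a3* (chr4:124392105-124409667) encodes another SF3A subunit. Heights of *Sf3a3* were 16 in *Parp14*+/+, 17.5 in *Parp14*+/+ with PJ34, 9.5 in *Parp14*−/− and 9.5 in *Parp14*−/− with PJ34, again with the *Parp14*+/+ libraries above the *Parp14*−/− libraries. For *Sf3a3* the ratio was 1.68 (0.926 to 3.14) without PJ34 and 1.84 (1.03 to 3.41) with it, and 1.59 after scaling. With the highest interval overlapping *Sf3a3*, or the highest summit within 1 kb, the second was 3.57. A summit of 24 fragments in *Parp14*+/+ and of 25 in *Parp14*+/+ with PJ34 stood 72 bp before the start of the gene. In *Parp14*−/− and in *Parp14*−/− with PJ34 the tallest summit of its regions was elsewhere, 5704 and 5832 bp before the start, at 12 and 10 fragments. No interval of the *Parp14*−/− library overlapped *Sf3a3*, and 3600 bp of it were covered in *Parp14*−/− with PJ34. The third SF3A gene, *Sf3a2* (chr10:80261329-80267559), had heights of 28 in *Parp14*+/+, 39 in *Parp14*+/+ with PJ34, 25 in *Parp14*−/− and 23 in *Parp14*−/− with PJ34. Its library of *Parp14*+/+ cells with PJ34 was the highest and the other 3 lay close together. The *Sf3a2* ratio was 1.12 (0.630 to 2.00) without PJ34 and 1.70 (0.988 to 2.97) with it, and 1.46 after scaling, which put all 3 SF3A genes above 1.4 in the comparison with PJ34, beside 23.6% of all genes before scaling and 12.6% after it. The summits behind the values of *Sf3a2* lay 208 to 1136 bp before its start, over the neighbouring gene *Plekhj1*, and 3 neighbours had the same 4 values.

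*Hnrnpl* (chr7:29595932-29607263) encodes the hnRNP that binds CA-rich RNA and silences exons of *Ptprc*. Heights of *Hnrnpl* were 30 in *Parp14*+/+, 32 in *Parp14*+/+ with PJ34, 17 in *Parp14*−/− and 19 in *Parp14*−/− with PJ34. The *Parp14*+/+ libraries were nearly equal, as were the *Parp14*−/− libraries below them. The *Hnrnpl* ratio was 1.76 (0.942 to 3.41) without PJ34 and 1.68 (0.926 to 3.14) with it, and 1.45 after scaling. Intervals covered the whole of *Hnrnpl* in all 4 libraries, and the summits lay 738, 994, 1314 and 1090 bp past its end. *Ech1*, the next gene, had the same 4 values, so the table does not separate the pair. The related gene *Hnrnpll*, named after its values were seen, had heights of 10, 13, 9.5 and 9 in the same order, and passed 1.4 with PJ34 in both genotypes at 1.44, or 1.25 after scaling.

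*Snrpd2* (chr7:19735187-19738075) encodes a protein of the Sm ring. Heights of *Snrpd2* were 10 in *Parp14*+/+, 10 in *Parp14*+/+ with PJ34, 6 in *Parp14*−/− and 6 in *Parp14*−/− with PJ34, with a ratio of 1.67 (0.549 to 5.58) in both genotype comparisons, or 1.44 after scaling in the comparison with PJ34. These were the lowest counts behind any of the 4 genes. No interval covered *Snrpd2* in any library. Its only active region, chr7:19738951-19744200, lies past the end of the gene, and the only summit there, in *Parp14*+/+, stood 4902 bp past the end over *Gipr*, so the values are not of polymerase on *Snrpd2* itself.

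**Figure D3:**
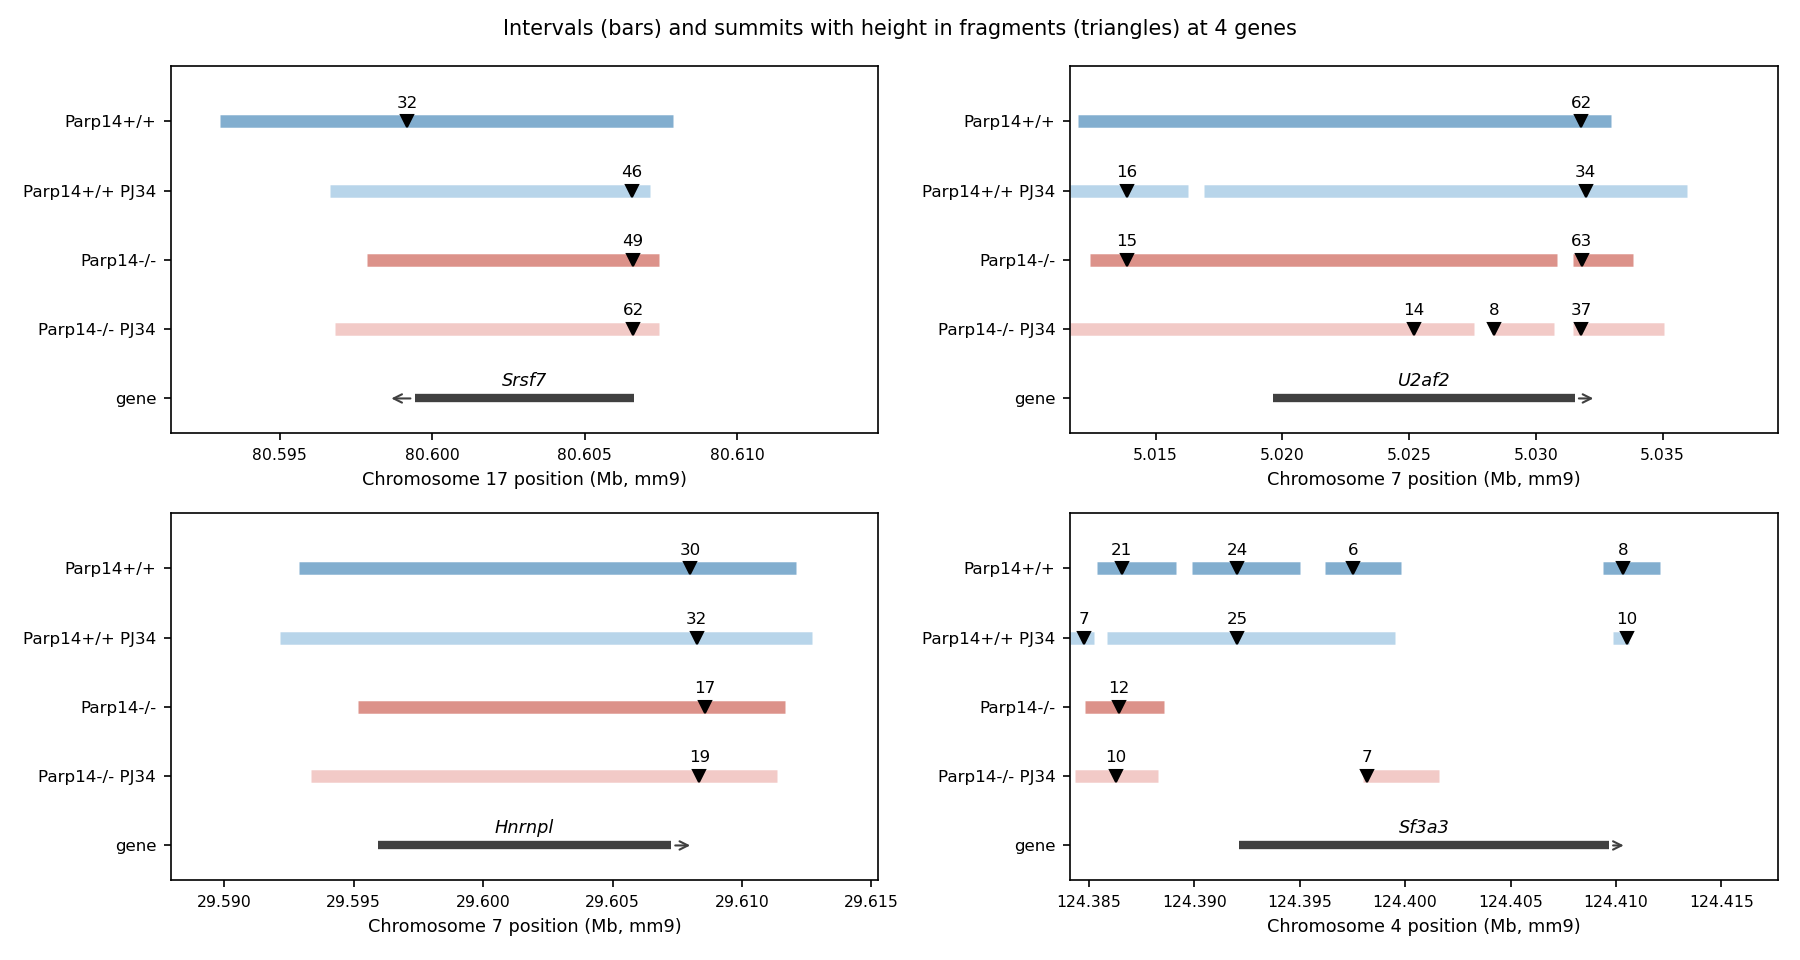
Intervals (bars) and their summits (triangles, labelled with the height in fragments) in the 4 libraries at *Srsf7*, *U2af2*, *Hnrnpl* and *Sf3a3*, against position in Mb on build mm9, with each gene and its direction in the lowest track. The *Parp14*+/+ summit of *Srsf7* lies past the end of the gene and the summits of the other 3 libraries at its start, and no interval of *Parp14*−/− overlaps *Sf3a3*.

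Promoters of these 4 genes are shown because the heights listed for them were past the same limit in both genotype comparisons, though those of *Snrpd2* were read outside the gene. The sequences are from RefSeq on build GRCm38.p6, in which 52 of the 58 genes had a promoter of 300 bases, from 250 before to 50 after the start. All 4 are on the plus strand, at chr4:124714611-124714910 for *Sf3a3*, chr7:28810640-28810939 for *Hnrnpl*, chr11:4160104-4160403 for *Sf3a1* and chr7:19149588-19149887 for *Snrpd2*. Capitals mark matches, on either strand, to 6 motifs: the GC box GGGCGG (in 35.7% of all 32851 promoters), the box of letters CCAAT (37.4%), the ETS motif CCGGAAG (8.86%), the YY1 motif AAGATGGC (2.75%), the NRF1 motif GCATGCGC (2.71%) and the TATA motif TATAAA (13.6%).
Sf3a3: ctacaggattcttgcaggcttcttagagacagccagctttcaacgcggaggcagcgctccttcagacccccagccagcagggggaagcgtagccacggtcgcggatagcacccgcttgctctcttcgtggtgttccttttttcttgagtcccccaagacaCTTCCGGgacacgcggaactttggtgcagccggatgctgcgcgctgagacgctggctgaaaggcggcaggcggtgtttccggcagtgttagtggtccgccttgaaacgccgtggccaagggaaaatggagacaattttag
Hnrnpl: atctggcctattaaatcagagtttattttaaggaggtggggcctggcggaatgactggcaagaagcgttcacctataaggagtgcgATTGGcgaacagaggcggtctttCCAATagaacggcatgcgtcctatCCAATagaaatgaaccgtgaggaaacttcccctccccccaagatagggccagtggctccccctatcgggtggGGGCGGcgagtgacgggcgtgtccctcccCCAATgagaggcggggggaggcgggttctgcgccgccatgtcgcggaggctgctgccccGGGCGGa
Sf3a1: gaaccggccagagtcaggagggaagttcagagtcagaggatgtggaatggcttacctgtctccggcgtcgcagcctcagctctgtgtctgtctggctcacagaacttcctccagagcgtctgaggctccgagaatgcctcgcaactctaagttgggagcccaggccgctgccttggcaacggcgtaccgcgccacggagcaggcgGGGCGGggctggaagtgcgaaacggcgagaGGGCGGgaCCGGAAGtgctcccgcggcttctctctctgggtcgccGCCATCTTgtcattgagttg
Snrpd2: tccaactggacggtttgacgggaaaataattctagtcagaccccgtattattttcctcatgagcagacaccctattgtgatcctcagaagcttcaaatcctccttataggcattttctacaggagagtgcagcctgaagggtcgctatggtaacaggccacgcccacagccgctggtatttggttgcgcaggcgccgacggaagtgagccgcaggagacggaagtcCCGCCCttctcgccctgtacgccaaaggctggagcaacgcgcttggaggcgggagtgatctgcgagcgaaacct
The *Sf3a3* promoter held 1 ETS match, and that of *Snrpd2* 1 GC box. *Hnrnpl* had 4 CCAAT boxes and 2 GC boxes, and *Sf3a1* had 2 GC boxes, 1 ETS match and 1 YY1 match. No motif was found in all 4 promoters, and the NRF1 and TATA letters were in none of these windows. A match is a description of the letters and not of binding.

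SR protein genes gave 2 of the 3 ratios below 0.7 in the genotype comparison with PJ34, and *Snrpa* gave the other. Of the 9 SR protein genes, 3 lay above 1.4 in that comparison and 2 below 0.7, beside 23.6% and 4.55% of all genes. *Srsf2* (chr11:116711221-116714396), whose product binds exonic enhancers, had heights of 39 in *Parp14*+/+, 41 in *Parp14*+/+ with PJ34, 48 in *Parp14*−/− and 65 in *Parp14*−/− with PJ34. The *Parp14*−/− libraries were higher, and the one with PJ34 the highest. The *Srsf2* ratio was 0.813 (0.519 to 1.27) without PJ34 and 0.631 (0.416 to 0.947) with it, and 0.545 after scaling. All 4 summits lay at the start of *Srsf2*, where *Mfsd11* starts in the opposite direction, and 3 neighbours had the same values. *Srsf5* (chr12:82046491-82051494), another SR protein gene, had heights of 29 in *Parp14*+/+, 27 in *Parp14*+/+ with PJ34, 38 in *Parp14*−/− and 42 in *Parp14*−/− with PJ34. Both *Parp14*−/− libraries again stood above both *Parp14*+/+ libraries. For *Srsf5* the ratio was 0.763 (0.454 to 1.27) without PJ34 and 0.643 (0.381 to 1.07) with it, and 0.555 after scaling. The summit was within the gene in 3 libraries and 1995 bp past its end in *Parp14*+/+ with PJ34. A neighbour of *Srsf5* had the same 4 values.

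*Srsf7* (chr17:80599420-80606629) encodes an SR protein that also takes part in mRNA export. Its heights were 32 in *Parp14*+/+, 46 in *Parp14*+/+ with PJ34, 49 in *Parp14*−/− and 62 in *Parp14*−/− with PJ34, lowest in the untreated *Parp14*+/+ library and highest in *Parp14*−/− with PJ34. The *Srsf7* ratio was 0.653 (0.405 to 1.04) in *Parp14*+/+ against *Parp14*−/− and 0.742 (0.495 to 1.10) with PJ34. After scaling these were 0.631 and 0.641, both past the limit. In *Parp14*+/+ without against with PJ34 it was 0.696 (0.429 to 1.12), and scaling brought it to 0.724, inside the limits. The library that set 2 of these ratios, *Parp14*+/+, had its summit at a different place. Its 32 fragments lay 251 bp past the end of *Srsf7*, and the other 3 summits lay within the gene at its start, at positions 80606561, 80606577 and 80606593. Not all SR protein genes went this way. In the genotype comparison with PJ34, *Srsf4* at 1.67, *Srsf9* at 1.60 and *Srsf1* at 1.43, chosen after their values were seen, lay above 1.4. After scaling they stood at 1.44, 1.38 and 1.24, and the 9 SR protein genes had 1 ratio above 1.4 and 3 below 0.7, beside 12.6% and 10.8% of all genes. The *Srsf9* summits, however, lay 4304 to 8080 bp past its end over *Gatc*, and 3 neighbours had the same 4 values.

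Among the SR-related genes, *Clasrp* (chr7:20166392-20189817), which encodes a partner of the SR protein kinase CLK4, had heights of 26 in *Parp14*+/+, 24.3 in *Parp14*+/+ with PJ34, 20.3 in *Parp14*−/− and 15.7 in *Parp14*−/− with PJ34. The library with *Parp14*−/− cells and PJ34 was the lowest. The *Clasrp* ratio was 1.28 (0.903 to 1.82) without PJ34 and 1.55 (1.06 to 2.29) with it, and scaling brought the second to 1.34, inside the limits. All summits of *Clasrp* stood at its start, and intervals covered 4.98% to 7.54% of its length, unlike *Srsf2*, *Srsf5* and *Srsf7*, which were covered in full in all 4 libraries. *Scaf4*, whose product binds the polymerase's C-terminal repeat, had heights of 10.3 in *Parp14*+/+, 10.5 in *Parp14*+/+ with PJ34, 14.3 in *Parp14*−/− and 12.5 in *Parp14*−/− with PJ34. Both *Parp14*−/− libraries were the higher, with genotype ratios of 0.719 without PJ34 and 0.840 with it, and scaling brought the first to 0.694, just past the limit. The tallest summit in both *Parp14*−/− libraries, of 24 fragments, lay 8359 and 8375 bp past the end of *Scaf4* over *Sod1*. The highest summits within 1 kb of *Scaf4* ran the other way, at 16 in *Parp14*+/+, 20 in *Parp14*+/+ with PJ34, 12 in *Parp14*−/− and 9 in *Parp14*−/− with PJ34, so the direction at this gene depended on where the height was read. *Scaf11*, another SR-related gene, chosen after its values were seen, had heights of 10.5 in *Parp14*+/+, 10.8 in *Parp14*+/+ with PJ34, 9.5 in *Parp14*−/− and 6.5 in *Parp14*−/− with PJ34, the lowest. Its ratio was 1.65 (0.993 to 2.80) in the genotype comparison with PJ34, and 1.43 after scaling. In *Parp14*−/− without against with PJ34 it was 1.46 (0.865 to 2.51), and scaling brought it to 1.35, inside the limits. *Srsf11*, a gene of a U2AF partner, had heights from 16 to 21 and passed no limit.

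In the U2AF family the 2 PJ34 comparisons both placed *U2af2* (chr7:5019632-5031535) above 1.4. U2AF2 binds the pyrimidine tract before the end of an intron. Heights of *U2af2* were 62 in *Parp14*+/+, 34 in *Parp14*+/+ with PJ34, 63 in *Parp14*−/− and 37 in *Parp14*−/− with PJ34. The libraries separated by treatment, with both PJ34 libraries well below both untreated ones and the genotypes nearly equal. The ratio without against with PJ34 was 1.82 (1.18 to 2.86) in *Parp14*+/+ cells and 1.70 (1.12 to 2.63) in *Parp14*−/− cells, or 1.57 after scaling in the latter. All 4 summits of *U2af2* lay 242 to 434 bp past its end, and the neighbours *Ccdc106* and *Epn1* had the same 4 values. *U2af1*, whose product reads the last bases of the intron, had heights of 22 in *Parp14*+/+, 16 in *Parp14*+/+ with PJ34, 23 in *Parp14*−/− and 18 in *Parp14*−/− with PJ34. The PJ34 ratios of *U2af1* were 1.38 in *Parp14*+/+ cells and 1.28 in *Parp14*−/− cells, within the limits, and the first was 1.43 after scaling. *U2af1l4*, a paralogue of *U2af1*, had heights from 9 to 10.5. All 3 U2AF genes had genotype ratios below 1, without and with PJ34 and also after scaling, between 0.889 and 0.984 before scaling, and none passed 0.7.

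*Hnrnpk* (chr13:58493312-58503877), which encodes a protein that binds C-rich RNA and DNA, was the other gene above 1.4 in both PJ34 comparisons, which makes 2 of the 58 (3.45%) beside 1.2% of all genes. At *Hnrnpk* the heights were 49 in *Parp14*+/+, 33 in *Parp14*+/+ with PJ34, 43 in *Parp14*−/− and 29 in *Parp14*−/− with PJ34. Both PJ34 libraries were lower than both untreated ones. The *Hnrnpk* ratio without against with PJ34 was 1.48 (0.936 to 2.38) in *Parp14*+/+ cells and 1.48 (0.905 to 2.46) in *Parp14*−/− cells, and scaling brought the second to 1.37, inside the limits. Its summits lay 2143 to 2655 bp past the end of the gene, which intervals covered in full in all 4 libraries. A neighbour of *Hnrnpk* had the same 4 values.

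*Hnrnpa2b1* had heights of 76 in *Parp14*+/+, 77 in *Parp14*+/+ with PJ34, 87 in *Parp14*−/− and 60 in *Parp14*−/− with PJ34. The *Parp14*−/− libraries were the highest and the lowest of the 4. For *Hnrnpa2b1* the ratio of *Parp14*−/− without to with PJ34 was 1.45 (1.03 to 2.05), and 1.34 after scaling, which is inside the limits. Summits lay 192 to 608 bp past its end, and 2 neighbours had the same 4 values. *Hnrnph1*, which encodes a protein that binds runs of G and was chosen after its values were seen, had the highest ratio of the 58 genes in that comparison. At *Hnrnph1* the heights were 27 in *Parp14*+/+, 21 in *Parp14*+/+ with PJ34, 37 in *Parp14*−/− and 19 in *Parp14*−/− with PJ34. The untreated *Parp14*−/− library stood above the rest, and the *Hnrnph1* ratio was 1.95 (1.09 to 3.58), or 1.80 after scaling. *Hnrnpa1*, whose product often represses exons, had heights from 36 to 45, and *Hnrnpul1*, a relative of hnRNP U, from 32 to 45.5. Neither passed a limit. The tallest summit in the regions of *Hnrnpul1*, of 54 to 74 fragments, lay 2956 to 3084 bp past its end over *Ccdc97*.

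Another pair of hnRNP H genes, chosen after their values were seen, gave low heights. *Hnrnph2* (chrX:131135825-131141593), a close relative of *Hnrnph1*, had heights of 7.5 in *Parp14*+/+, 7 in *Parp14*+/+ with PJ34, 11.5 in *Parp14*−/− and 9.5 in *Parp14*−/− with PJ34. Both *Parp14*−/− libraries were the higher, with ratios of 0.652 without PJ34 and 0.737 with it. After scaling the *Hnrnph2* ratios were 0.630 and 0.636, both past the limit, as were those of *Srsf7*. The tallest summits in the regions of *Hnrnph2* were of 8 fragments in both *Parp14*+/+ and *Parp14*−/−, 1664 and 1544 bp past its end, and within 1 kb of the gene they were 7 and 6, so the untreated summits did not show the direction of the average heights. With PJ34 they did, since *Parp14*−/− had a summit of 11 fragments 440 bp past the end of *Hnrnph2* and *Parp14*+/+ had none. *Hnrnph3*, a smaller member of the same group, had heights of 7.5 in *Parp14*+/+, 11.5 in *Parp14*+/+ with PJ34, 8.5 in *Parp14*−/− and 7 in *Parp14*−/− with PJ34. Only *Parp14*+/+ with PJ34 stood out, which gave a ratio of 0.652 in *Parp14*+/+ without against with PJ34 and of 1.64 in the genotype comparison with PJ34, or 1.42 after scaling.

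Of the SF3B genes, *Sf3b3*, a scaffold subunit of the complex, was the only one to pass a limit by average height. At *Sf3b3* the heights were 21 in *Parp14*+/+, 20 in *Parp14*+/+ with PJ34, 24 in *Parp14*−/− and 15 in *Parp14*−/− with PJ34. A neighbour of *Sf3b3* had the same 4 values. The library with *Parp14*−/− cells and PJ34 was the lowest, and the ratio of *Parp14*−/− without to with PJ34 was 1.60 (0.806 to 3.28), or 1.48 after scaling. In that library the summit of *Sf3b3* lay at its start, and in the other 3 it lay 1287 to 1719 bp past its end. With the highest summit within 1 kb of the gene, 16 in *Parp14*−/− and 15 in *Parp14*−/− with PJ34, the ratio was 1.07, inside the limits. *Sf3b1*, whose product contacts the branch point, had heights of 20, 21, 17 and 19, and *Sf3b4* had heights of 13.5, 13.5, 12.5 and 12 in the same order. These were flat across the 4 libraries.

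Genes of snRNP proteins had lower heights than the SR protein and hnRNP genes. *Snrnp70* (chr7:52631824-52651017) encodes the U1 protein that contacts SR proteins. It had heights of 23 in *Parp14*+/+, 22 in *Parp14*+/+ with PJ34, 16 in *Parp14*−/− and 17 in *Parp14*−/− with PJ34. The *Parp14*−/− libraries were the lower, with ratios of 1.44 (0.727 to 2.91) without PJ34 and 1.29 (0.656 to 2.60) with it, and scaling brought the first to 1.39, inside the limits. Summits of *Snrnp70* lay 4735 to 5839 bp past its end. *Snrpe*, an Sm gene, had heights of 21 in *Parp14*+/+, 15 in *Parp14*+/+ with PJ34, 14 in *Parp14*−/− and 13 in *Parp14*−/− with PJ34. Only the untreated *Parp14*+/+ library stood out, with a ratio to *Parp14*−/− of 1.5 (0.727 to 3.19) and a ratio to *Parp14*+/+ with PJ34 of 1.4, on the limit, or 1.46 after scaling. *Snrpb*, another Sm gene, had heights of 10 in *Parp14*+/+, 17 in *Parp14*+/+ with PJ34, 12 in *Parp14*−/− and 15 in *Parp14*−/− with PJ34. Both PJ34 libraries were the higher, and the ratio without against with PJ34 was 0.588 (0.241 to 1.36) in *Parp14*+/+ and 0.8 (0.342 to 1.83) in *Parp14*−/−. As at *Srsf7*, the *Parp14*+/+ summit of *Snrpb* lay past the end of the gene, by 1286 bp, and the other 3 at its start. *Snrpg*, an Sm gene chosen after its values were seen, had heights of 12 in *Parp14*+/+, 8 in *Parp14*+/+ with PJ34, 9.5 in *Parp14*−/− and 8.5 in *Parp14*−/− with PJ34, highest in untreated *Parp14*+/+, and passed 1.4 in *Parp14*+/+ without against with PJ34 at 1.5. *Snrpd1*, also of the Sm ring, had heights from 17 to 21, and *Snrpa1*, which encodes a U2 snRNP protein, from 16 to 21, and neither passed a limit.

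Where the summits lay bears on what a height measures. Genes at least 3 kb long were sorted by the place of the tallest summit of their regions. It fell between 1 kb before the gene's end and 5 kb past it for 36 of 54 of the listed genes with a summit in *Parp14*+/+ (66.7%), 22 of 53 in *Parp14*+/+ with PJ34 (41.5%), 27 of 53 in *Parp14*−/− (50.9%) and 24 of 50 in *Parp14*−/− with PJ34 (48.0%). Over all genes these shares were 39.1%, 35.5%, 32.0% and 32.1%, so the end of the gene held the tallest summit more often in the listed genes in each library. Among hnRNP genes it did so in 16 of 19, 9 of 18, 12 of 18 and 11 of 18. Not all subfamilies went this way. Among SR-related genes it did so in 2, 1, 1 and 1 of 7, below the share of all genes in each library. Among SF3A genes it did so in 1 of 3, 0 of 3, 1 of 3 and 0 of 2. The start of the gene held it in 14.8%, 20.8%, 22.6% and 26% of the listed genes, beside 15.2%, 15.6%, 18.8% and 20.3% of all genes. The tallest summit lay within 1 kb of the gene in all 4 libraries for 14 of the 58 genes and beyond 1 kb in all 4 for another 14. An active region reached another gene for 42 of the 58, and 24 had the same 4 values as a neighbour. Whether the neighbour or the listed gene held the polymerase was not tested.

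Other genes of the splicing machinery were compared in the same way. Their list of 96 was not picked for how they moved, but it was made with earlier results of these data known. Of these, 93 were in the table and 87 met the interval criterion, 2 of which are already among the 58, leaving 85. Above 1.4 and below 0.7 lay 7 (8.24%) and 7 (8.24%) of them in *Parp14*+/+ against *Parp14*−/−, beside 13.3% and 9.07% of all genes. With PJ34 in both genotypes these were 17 (20%) and 3 (3.53%), beside 23.6% and 4.55%. They were 4 (4.71%) and 6 (7.06%) in *Parp14*+/+ without against with PJ34, beside 6.95% and 10.4%, and 12 (14.1%) and 3 (3.53%) in *Parp14*−/− without against with PJ34, beside 14.3% and 5.7%. No share was above that of all genes. Median ratios were 1.00, 1.17, 0.962 and 1.11, near those of all genes. After scaling the numbers were 4 and 7, 7 and 5, 6 and 5, and 8 and 6 in the same order, beside 11.2% and 11.4%, 12.6% and 10.8%, 9.33% and 8.93%, and 8.71% and 9.26% of all genes. *Ddx5*, a helicase gene, was the highest of the 85, with heights of 133 in *Parp14*+/+, 147 in *Parp14*+/+ with PJ34, 160 in *Parp14*−/− and 144 in *Parp14*−/− with PJ34, and passed no limit. *Pcbp2*, which encodes a C-rich RNA binder related to hnRNP K, had heights of 26 in *Parp14*+/+, 32 in *Parp14*+/+ with PJ34, 18 in *Parp14*−/− and 18 in *Parp14*−/− with PJ34. It lay above 1.4 in both genotype comparisons, at 1.44 and 1.78, and after scaling at 1.39, inside the limits, and 1.54. *Pcbp2* was chosen after its values were seen.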

How the data were processed

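Peak heights were taken from the gene table deposited by the authors, whose unit is signal: fragment pile-up averaged over the active regions of a gene. The authors used ELAND for alignment to mm9, dropped duplicate reads, brought all libraries to the same number of alignments and called intervals with SICER against an input that mixed both genotypes. The table's 4 libraries of other cells, with 8 columns of per-sample values, were not used. Members and lists were chosen with earlier results of these data known. Named genes were the 3 highest of each subfamily, those past a limit the same way in both genotype or both PJ34 comparisons, or in opposite ways, and those past a limit with a summed height of at least 50. Ratios had no pseudocount. Some values of the marker and comparison lists are not reported here. Positions of summits and covered lengths came from the deposited interval tracks. Alternatives were 2 tiers of limits, scaling, minimum heights, shared values counted once, other interval criteria, other name sources, and heights from intervals or summits. Computation used Python 3.11.15, numpy 2.4.6, scipy 1.17.1 and pandas 2.3.3, and was tested on simulated data.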

Additional observations from a re-analysis of the deposited data

Results flagged for a closer look

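*Snrpa*, which encodes an RNA-binding protein of the U1 snRNP, passed opposite limits in the PJ34 comparisons of the 2 genotypes. It had heights of 15 in *Parp14*+/+, 10 in *Parp14*+/+ with PJ34, 11 in *Parp14*−/− and 16 in *Parp14*−/− with PJ34. The library with PJ34 was the lower in *Parp14*+/+ cells and the higher in *Parp14*−/− cells. The *Snrpa* ratio without against with PJ34 was 1.5 (0.630 to 3.73) in *Parp14*+/+ cells and 0.688 (0.288 to 1.58) in *Parp14*−/− cells, and the genotype ratio with PJ34 was 0.625 (0.254 to 1.46). With the highest interval overlapping the gene, the first of these was 0.7 in place of 1.5, and the second had no such value because no *Parp14*−/− interval overlapped *Snrpa*. The difference between the genotypes was not tested. The tallest summit lay 1933, 1752 and 1032 bp past the end of *Snrpa* in *Parp14*+/+, *Parp14*+/+ with PJ34 and *Parp14*−/−, and within the gene at its start in *Parp14*−/− with PJ34. Intervals covered 3900, 726, 0 and 8216 bp of *Snrpa* in the same order. A neighbour of *Snrpa* had the same 4 values.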

How the results depend on the processing

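As reported, 9 of the 58 genes passed a limit in *Parp14*+/+ against *Parp14*−/−, 17 with PJ34 in both genotypes, 7 in *Parp14*+/+ without against with PJ34 and 8 in *Parp14*−/− without against with PJ34, beside 22.4%, 28.1%, 17.3% and 20% of all genes. With 2 tiers of limits modelled on those of the study, the second from 1.2 and 0.83, for which a height of at least 11 was set here in place of the study's limit on another scale, these counts were 21, 26, 20 and 23, beside 38.3%, 42.9%, 33.3% and 34.2% of all genes. With a summed height of at least 50 they were 0 of 7, 2 of 8, 1 of 6 and 2 of 9, beside 16.6%, 22.8%, 9.84% and 12.5% of all genes. Requiring an interval in all 4 libraries left 5 of 48 in *Parp14*+/+ against *Parp14*−/−, beside 18.6%. With the highest summit within 1 kb of the gene, an alternative chosen after seeing the data, they were 5 of 29 in *Parp14*+/+ against *Parp14*−/−, beside 32.1%, and 11 of 30 with PJ34 in both genotypes, beside 32.5%. In *Parp14*+/+ against *Parp14*−/− these were 2 above 1.4 and 3 below 0.7, in place of 7 and 2, and the median ratio was 0.957 in place of 1.05. The other 29 counts of genes under an alternative, covered length included, were within 1.5 times the reported count. The cause was not tested. With the highest interval overlapping the gene, the ratio of *Snrpa* in *Parp14*+/+ without against with PJ34 was 0.7 in place of 1.5, and that of *Sf3a3* with PJ34 in both genotypes was 3.57 in place of 1.84. Of the 93 values of single genes and medians, 85 changed little, which for a gene means the same direction and a value within the ratio's interval, and for a median a move of at most 0.1 on the log2 scale. Because the intervals are wide, this count does not show that calls were stable. It includes ratios brought inside the limits, such as *Sf3b3* from 1.60 to 1.07 in *Parp14*−/− without against with PJ34, by the highest summit within 1 kb. Another was *Clasrp*, from 1.55 to 1.34 in the genotype comparison with PJ34, by scaling.

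No paired analysis was possible because each condition had 1 library and the labels pair none of them. Heights of about 20 fragments limit precision, and counting error alone left 1 outside the interval of at most 3 genes in a comparison. Positions of many summits outside the genes, and values shared between neighbours, limit what a height says about the gene it is listed for.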
